A study of Mus musculus with 12 samples.

Results

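The cytosolic ribosomal protein genes were taken from the gene table by name, as every row named Rpl or Rps followed by a number and at most the letters a, l or x, together with Rplp0, Rplp1, Rplp2 and Rpsa. The rule used no measured value and found 83 of 32867 genes, 32 of the small subunit and 51 of the large. It leaves out ribosomal proteins with other names, such as Rps3a1, Fau and Rack1, which are given separately. Retinal RNA, depleted of ribosomal RNA, was sequenced from 12 mouse samples, 3 per group. Pde6b rd1 retinas were taken at postnatal day 13, Pde6b rd10 retinas at day 23 and Prph rd2 retinas at day 29. The 3 wild-type C3H samples were labelled day 13, day 23 and day 29, so that by label each model had 1 control of its own day. Each model was compared with all 3. Pde6b rd1 and Pde6b rd10 both affect the rod phosphodiesterase, rd1 through a retroviral insertion and rd10 through a point mutation, and Prph rd2 affects the outer segment protein PRPH2. According to the study's methods, Pde6b rd1, Prph rd2 and wild type were C3H mice and Pde6b rd10 was on C57Bl6/J, whereas the labels give C57BL6/J for Prph rd2. Mice were used irrespective of sex, and the labels do not say how many animals a sample holds, so that p-values measure the spread between these samples.

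Ribosomal proteins are the protein part of the ribosome, and each copy of a subunit holds a single copy of nearly every one of them. Their mRNAs are abundant, begin with a run of pyrimidines at the cap (the TOP motif), and are translated together under the control of mTOR and LARP1. Mammalian genomes also hold many processed pseudogenes of these genes, intronless copies of the mRNA whose sequence is so close to the parent gene that short reads can align to either.

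The starts of 3 ribosomal protein genes are shown here to display the pyrimidine run across the annotated start, which is in capitals. Each window holds 25 bases before and 25 from the annotated RefSeq start on GRCm38.p6. Rps6, the small subunit protein that S6 kinase phosphorylates, is read from chr4:86857343-86857392 on the minus strand, Rpl15 from chr14:18270962-18271011 on the minus strand, and Rplp2 from chr7:141447626-141447675 on the plus strand.
Rps6: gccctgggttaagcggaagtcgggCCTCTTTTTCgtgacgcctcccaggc
Rpl15: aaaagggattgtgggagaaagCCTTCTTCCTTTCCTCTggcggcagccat
Rplp2: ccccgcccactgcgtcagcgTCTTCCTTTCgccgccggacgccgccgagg
RefSeq windows were found for 61 of the 83 genes. The letters CTTTCC, the letters CTTCCT or the letters CTCTTT occurred on the sense strand within 25 bases of the start in 23 of these 61 (37.7%), against 8.92% of all 27025 genes with a window. CCGGAAG, on either strand of the 300 bases around the start, occurred in 25 of 61 (41.0%) against 9.93% of all genes and 15.3% of other coding genes. GCCATNTT, on either strand, occurred in 11 (18.0%) against 6.96%. TATAAA, on the sense strand of the 50 bases before the start, occurred in 0 of 61 against 3.15%. These are matches of letters and not shown to be used.

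Reads on genes came to 17049495 in the shallowest sample and 24755890 in the deepest, and 3 counts, taken as the floor, came to between 0.121 and 0.176 CPM. The groups differed in ways that bear on the ribosomal protein genes. Xist, the RNA that marks the inactive X, had 8 to 10 reads in the C3H samples, 64914 to 83716 in Pde6b rd1, 37187 to 47452 in Prph rd2 and 13428 to 18861 in Pde6b rd10, while the Y-linked Ddx3y had 1481 to 2005 reads in C3H, 0 in all 3 Pde6b rd1 samples, 757 to 907 in Prph rd2 and 1056 to 1696 in Pde6b rd10. The make-up by sex thus differed between C3H and each model, and cannot be told apart from the model. Summed over 7 rod markers, the level was 4574 to 4684 FPKM (a count scaled to the length of the gene and to the reads of the sample) in C3H, 2256 to 2296 in Pde6b rd1, 3027 to 3261 in Prph rd2 and 4111 to 4300 in Pde6b rd10, none of the 7 being at 0 in any group. The 3 C3H samples, labelled with different days, thus lay within a narrow range for rods. They did so too for 5 Mueller glia markers, with sums of 708 to 722 FPKM. Those markers came to 346 to 354 FPKM in Pde6b rd1, 772 to 808 in Prph rd2 and 639 to 667 in Pde6b rd10. Whether the C3H samples differ in age as labelled was not tested. Summed over 7 microglia and macrophage markers, the level was 20.4 to 21.9 FPKM in C3H, 22.9 to 23.7 in Pde6b rd1, 16.3 to 18.8 in Prph rd2 and 79.8 to 93.0 in Pde6b rd10, and again no marker was at 0. In whole retina, fewer cells of a type and less RNA per cell cannot be told apart, and the part of these shifts in the results on ribosomal protein genes was not tested.

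Reads that could come from pseudogenes set Pde6b rd10 apart before any comparison. The pseudogene transcripts of the table were aligned to the mRNAs of the 80 ribosomal protein genes annotated as protein-coding. Rps4l, Rpl32l and Rpl6l, which are annotated as pseudogenes, were left out of this matching. At 90% identity or more over at least 80% of their length, 598 pseudogene rows matched 76 of these 80 genes. These rows held 0.0229 to 0.0243% of reads in C3H, 0.0219 to 0.0244% in Prph rd2 and 0.0248 to 0.0280% in Pde6b rd1, but 0.0133 to 0.0144% in Pde6b rd10. In this the Prph rd2 samples lay with the C3H samples. The background strain and the rd10 allele cannot be told apart in this design, and how reads with several alignments were counted is not given in the sources used here.

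The level of the genes spanned a wide range. The median of the 83 was 40.1 FPKM over the 12 samples, with quartiles of 20.5 and 74.3, against 0.573 for all genes, and 73 genes exceeded 10 FPKM. The highest were Rplp1 with a mean of 256 FPKM, Rps15 with 162 and Rplp0 with 133. Rplp0, Rplp1 and Rplp2 form the stalk that recruits the translation factors, and Rplp2 had a lower FPKM, between 24.8 and 34.9. FPKM divides by gene length, which was 499 bases for Rplp1, 630 for Rps15, 1659 for Rplp0 and 2072 for Rplp2. In reads the gap was smaller: the C3H sample of day 13 had 2447 on Rplp1, 4231 on Rplp0 and 1302 on Rplp2. At the bottom, Rpl39l, Rpl3l and Rpl6l had fewer than 10 reads in every sample and were not tested. Rpl39l, a testis-enriched copy of Rpl39, had 1 read in each of 2 samples and 0 in the other 10, and Rpl3l, the striated muscle copy of Rpl3, had between 0 and 5 reads. Several broadly used genes were also listed at low levels. Rpl13a had a mean of 2.06 FPKM, Rpl24 of 1.20, Rps10 of 1.15 and Rpl36al of 0.366. The exons of each of these 4 overlap another annotated gene on the same strand, over 29.4% for Rpl13a (Gm45713), 47.0% for Rpl24 (Gm28037), 20.6% for Rps10 (RPS10-NUDT3) and 24.5% for Rpl36al (Gm49383). Exon overlap with another gene was found for 38 of the 83 genes, for 28 of them on the same strand, and the part of discarded reads in these levels was not tested.

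**Figure D1:**
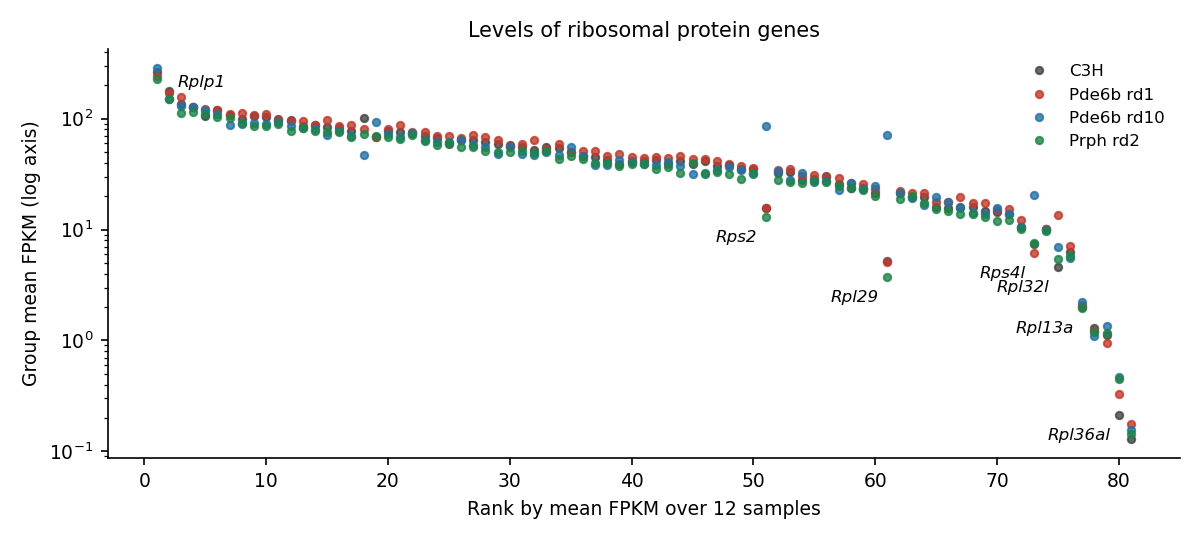
Mean FPKM in each of the 4 groups (log axis) for the ribosomal protein genes above 0.1 FPKM, ordered by their mean over 12 samples. Most genes have 4 nearly coinciding points, while Rps2 and Rpl29 stand far above the other groups in Pde6b rd10.

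As a whole, and before scaling between libraries, the genes took a slightly larger share of the reads in Pde6b rd1 and a smaller share in Prph rd2. They held 0.688, 0.695 and 0.731% of the reads in the C3H samples of days 13, 23 and 29. They held 0.751, 0.752 and 0.750% in the 3 Pde6b rd1 samples, all above C3H. In the Prph rd2 samples they held 0.636, 0.676 and 0.602%, all below C3H, and in Pde6b rd10 0.698, 0.712 and 0.674%, within or near the C3H range. With 3 samples against 3, an exact two-sided permutation test cannot go below 0.10, which both non-overlapping splits of these unscaled shares reach. Both subunits followed: the small subunit genes held 0.278 to 0.295% in C3H, 0.302 to 0.305% in Pde6b rd1, 0.242 to 0.273% in Prph rd2 and 0.273 to 0.289% in Pde6b rd10. The large subunit genes held 0.410 to 0.435%, 0.445 to 0.450%, 0.360 to 0.403% and 0.401 to 0.424%. As a share of summed FPKM the genes came to 1.95 to 2.08% in C3H, 2.13 to 2.15% in Pde6b rd1, 1.71 to 1.88% in Prph rd2 and 1.89 to 1.99% in Pde6b rd10. These shares lack the scaling between libraries (TMM) of the tests below. Its factors were 0.970 to 0.978 in C3H and 1.02 to 1.03 in Pde6b rd1 when fitted together, and 0.985 to 0.991 in C3H and 1.00 to 1.02 in Prph rd2. Divided by these factors, the Pde6b rd1 shares would lie within the C3H range, while the Prph rd2 shares would stay below it. Within C3H, 68 of the 80 genes tested had a higher FPKM in the day 29 sample than in the day 13 sample. The same count was not made over all genes, and with 1 sample a day it has no replicate check. The day 29 sample also had the highest base quality of the 3 C3H samples in the study's sequencing statistics.

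**Figure D2:**
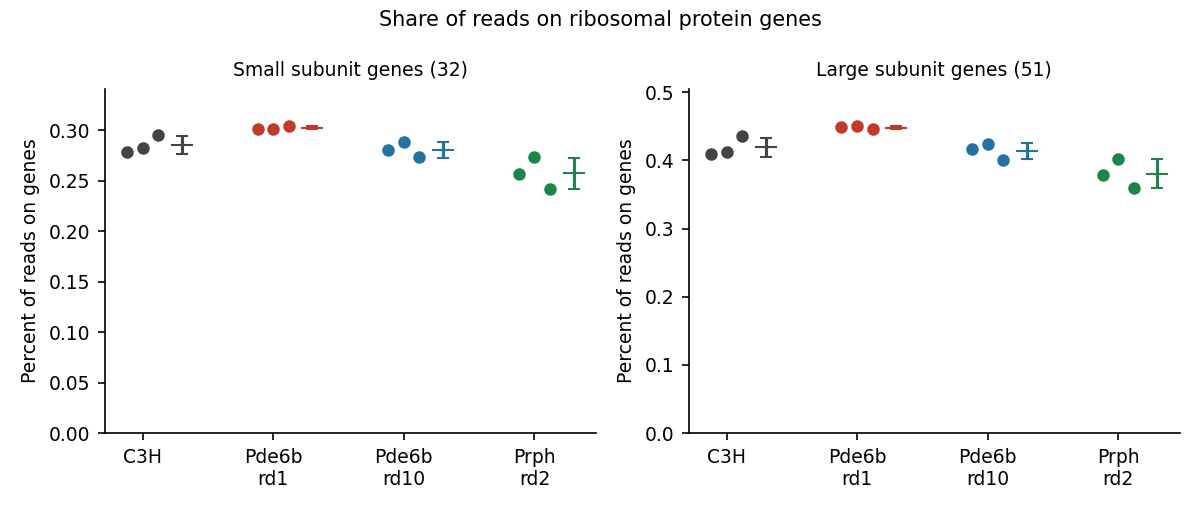
Percent of reads on genes that fell on small subunit genes (left) and large subunit genes (right) in each sample, with points for the 3 samples of a group and a bar for the mean with its SD. In both panels, without scaling between libraries, the Pde6b rd1 points lie above and the Prph rd2 points below all C3H points.

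Each model was tested gene by gene against the 3 C3H samples with edgeR's quasi-likelihood test on the counts, with Benjamini-Hochberg adjustment over all genes tested. A gene was said to rise or fall at an adjusted p under 0.05, and it was called at an unadjusted p under 0.05 with a change of at least 1.5-fold.

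In Pde6b rd1 at day 13 few ribosomal protein genes moved, and by little. Of 79 tested, 12 rose (15.2%) and 5 fell (6.33%), against 21.9% and 21.3% of all genes, and the median log2 fold change was 0.04 against -0.01 over all genes. Called was 1 gene, or 1.27%, against 15.0% of all genes. Rpl15, of the large subunit core, stood at 1950, 2309 and 1833 reads in C3H and 2572, 2045 and 2269 in Pde6b rd1, or 37.4 to 39.7 against 47.6 to 48.5 FPKM, with no overlap. Its log2 fold change was 0.24 (SE 0.04, adjusted p = 1.59e-05 by edgeR). Rps26, which lies at the mRNA exit of the small subunit, went from 49.5 to 53.9 FPKM in C3H to 60.4 to 66.6, a log2 fold change of 0.23 (SE 0.05, adjusted p = 0.000240 by edgeR). Rplp0, the stalk base, rose by 0.15 on the log2 scale and Rpl7a by 0.12. In the other direction Rps23 fell by 0.41, Rplp1 by 0.21, Rps15 by 0.16 and Rpl9 by 0.15. The FPKM of Rplp1, Rps15 and Rpl9 overlapped between the groups. FPKM lacks the TMM scaling of the test, whose factors were higher in Pde6b rd1 than in C3H. Rpsa, with a log2 fold change of -0.01, had no overlap in FPKM either. Overlap in FPKM can thus differ from overlap on the scale of the test. Within the stalk, Rplp0 rose without overlap, while Rplp1 went from 247 to 299 FPKM in C3H to 229 to 262. With the C3H sample of day 13 as the only control, their log2 fold changes were 0.20 and -0.11. Rplp2 had a log2 fold change of 0.02 that did not pass.

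The 4 genes on the X chromosome had a log2 fold change above 0 in Pde6b rd1, as did 50 of all 79 tested. Rpl10 rose by 0.16 and Rps4x by 0.15, while the values of Rpl36a (0.11) and Rpl39 (0.02) did not pass. In Pde6b rd10, Rps4x rose by 0.11 and the other 3 did not pass. In Prph rd2, Rpl39 fell by 0.33. The part of sex in these values was not tested. Rps4x encodes the small subunit protein eS4 and lies on the X chromosome in mice, which lack the Y-linked copy that humans carry.

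Prph rd2 at day 29 gave the most uniform shift. Of 79 genes 0 rose and 26 fell (32.9%), against 4.53% and 5.17% of all genes, and 74 of the 79 estimates were below 0. The median log2 fold change was -0.17, with quartiles of -0.25 and -0.11, against -0.00125 over all genes, and the medians of the small subunit (-0.20) and the large subunit (-0.17) were alike. The genes called at 1.5-fold numbered 0, against 4.57% of all genes, so the shift was broad and small. Rplp0 stood at 128, 139 and 138 FPKM in C3H and 111, 115 and 111 in Prph rd2, with no overlap, and its log2 fold change was -0.30 (SE 0.05, adjusted p = 0.00100 by edgeR). Rps23, an rRNA-binding protein of the decoding site, fell by 0.50, Rpl27 by 0.39 and Rps25 by 0.30. All 3 stalk genes fell, Rplp2 by 0.31 and Rplp1 by 0.25, and Rpsa, which sits on the back of the small subunit, fell by 0.23. The number that fell depended on single libraries. It was 8 without C3H replicate 3, 12 without C3H replicate 2, 17 without C3H replicate 1 or without Prph rd2 replicate 1, and 44 without Prph rd2 replicate 2, and none rose in any of these fits. The C3H sample of day 29 had the highest share of reads on ribosomal protein genes of the 3 controls, and with it as the only control the median was -0.25. By the study's sequencing statistics it also had the highest base quality of the 3 controls. In this sample, day and sequencing quality cannot be told apart.

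In Pde6b rd10 at day 23 more genes fell than rose, and a few rose steeply. Of 80 tested, 38 fell (47.5%) and 10 rose (12.5%), against 26.3% and 27.7% of all genes, 61 of the 80 estimates were below 0, and the median log2 fold change was -0.14 against -0.00248. Called were 5 genes (6.25%) against 23.9% of all genes. Rps6 was between 107 and 108 FPKM in the 3 C3H samples and between 85.9 and 89.0 in Pde6b rd10, a log2 fold change of -0.35 (SE 0.04, adjusted p = 1.83e-07 by edgeR). Rps18 fell by 0.34, Rpl10a by 0.33, Rps15 by 0.32, Rplp2 by 0.27 and Rplp0 by 0.12. Rplp1 did not pass, with 247 to 299 FPKM in C3H and 267 to 307 in Pde6b rd10. With the C3H sample of day 23 as the only control the median was -0.0789, 14 genes fell and 7 rose, so the size of the shift rested on the choice of controls.

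**Figure D3:**
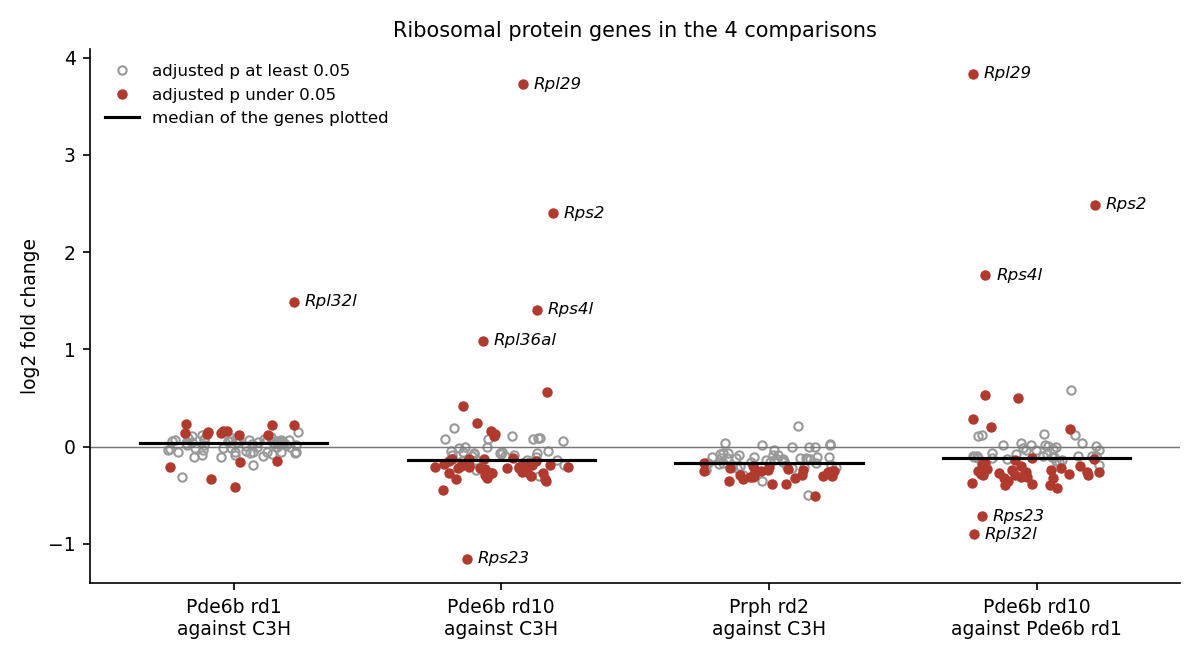
Log2 fold change of each ribosomal protein gene tested in the 4 comparisons (points, filled where the adjusted p is under 0.05), with the median as a line and the called genes named. The points of Prph rd2 lie almost wholly below 0 in a narrow band, and Rpl29, Rps2 and Rps4l stand apart above it in both comparisons of Pde6b rd10.

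Rps23 fell in every model and by the most in Pde6b rd10. It lies on chromosome 13 (chr13:90922958-90924950, plus strand). It stood at 99.8, 95.7 and 109 FPKM in C3H, at 81.8, 79.4 and 79.2 in Pde6b rd1, at 76.8, 78.0 and 64.7 in Prph rd2 and at 45.8, 50.3 and 46.2 in Pde6b rd10. No sample of a model reached the C3H range, and the Pde6b rd10 samples lay below all others. The log2 fold changes were -0.41 (SE 0.04), -0.50 (SE 0.07) and -1.15 (SE 0.05), with adjusted p by edgeR of 4.85e-08, 0.000344 and 2.40e-13. The 3 comparisons share the C3H samples. Between both Pde6b models directly, it was lower in rd10 by a log2 fold change of -0.71 (SE 0.07, adjusted p = 1.57e-08 by edgeR). Its 9 matched pseudogene rows together held between 13 and 44 reads a sample.

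Rps2 and Rpl29 were the largest changes in Pde6b rd10, and both have a near-identical pseudogene row that moved the other way. Rps2 (chr17:24718116-24721929, plus strand), a small subunit protein at the mRNA entry, had 554, 675 and 584 reads in C3H, 564, 653 and 495 in Prph rd2 and 629, 505 and 538 in Pde6b rd1, but 3896, 3131 and 2894 in Pde6b rd10. The log2 fold change over C3H was 2.40 (SE 0.06, adjusted p = 3.27e-18 by edgeR). Rps2-ps10, a pseudogene row 99.36% identical to it, had 1197 to 1603 reads in C3H, 1063 to 1541 in Pde6b rd1 and 1313 to 1580 in Prph rd2, and 19 to 22 in Pde6b rd10. With all 42 matched rows added to Rps2, the sums were 1960, 2502 and 1939 in C3H and 4150, 3342 and 3113 in Pde6b rd10. The log2 fold change then fell to 0.68 (SE 0.05), still past the threshold (adjusted p = 2.74e-10 by edgeR). This alternative was chosen after seeing the data.

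Rpl29, a small basic protein at the surface of the large subunit, had 88, 113 and 169 reads in C3H, 94 to 130 in Pde6b rd1 and 82 to 118 in Prph rd2, against 1970, 1592 and 1518 in Pde6b rd10. The log2 fold change over C3H was 3.73 (SE 0.12, adjusted p = 5.25e-16 by edgeR). Its gene lies at chr9:106429454-106431568 on the plus strand. Gm13841, a processed copy at chr5:115801677-115802159 on the minus strand, had 98 to 116 reads in C3H, 91 to 122 in Pde6b rd1, 84 to 116 in Prph rd2 and 5 to 8 in Pde6b rd10. The copy is printed beside Rpl29 to show how few bases a read has to tell them by. The first line holds the first 100 coding bases of Rpl29, from its GENCODE vM21 mRNA, and the second the aligned bases of the copy at chr5:115802060-115802159 (GRCm38, minus strand), with differing bases in capitals.
Rpl29: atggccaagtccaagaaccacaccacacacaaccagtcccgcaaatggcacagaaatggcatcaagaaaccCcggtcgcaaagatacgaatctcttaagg
Gm13841: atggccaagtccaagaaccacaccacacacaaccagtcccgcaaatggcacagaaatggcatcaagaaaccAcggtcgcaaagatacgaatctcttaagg
Counted from 1 at the start of the coding sequence, the difference is C72A, and 3 bases differ over all 483 aligned. With its 31 matched rows added, Rpl29 summed to 224, 278 and 306 reads in C3H and 2004, 1620 and 1537 in Pde6b rd10, and the log2 fold change was 2.62 (SE 0.08, adjusted p = 4.92e-16 by edgeR). The sums in C3H thus stayed far below those in Pde6b rd10.

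The same addition left the direction of Rpl3 as it was and turned that of Rpl15. Rpl3, which lines the peptidyl transferase centre, stood at 66.9 to 68.7 FPKM in C3H and 90.9 to 96.1 in Pde6b rd10, and its log2 fold change was 0.42 (SE 0.04) as counted and 0.30 (SE 0.04) with its 7 matched rows, among them Rpl3-ps1 with 325 to 598 reads in C3H and 70 to 103 in Pde6b rd10. Rpl15 had a log2 fold change of 0.09 over C3H in Pde6b rd10 that did not pass as counted (adjusted p = 0.0975 by edgeR). With 18 matched rows added, which held 413, 490 and 552 reads in C3H and 57, 49 and 62 in Pde6b rd10, it fell by 0.19 on the log2 scale (SE 0.04, adjusted p = 0.000664 by edgeR). In Pde6b rd1, where the matched rows held 445 to 573 reads, Rpl15 rose by 0.20 with them and 0.24 without.

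**Figure D4:**
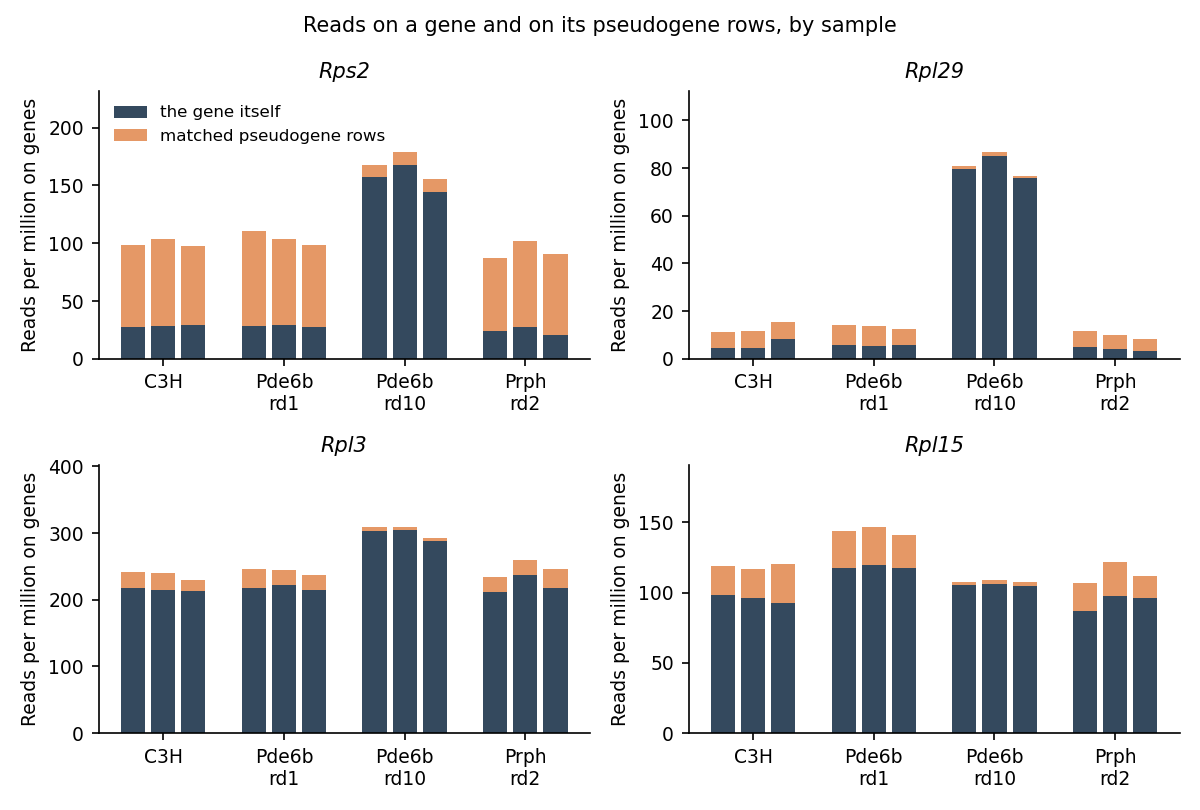
Counts scaled to library size (CPM) on Rps2, Rpl29, Rpl3 and Rpl15 (dark) and on the pseudogene rows matched to each by sequence (light), stacked for the 3 samples of each group. In the Pde6b rd10 samples the light part is small for all 4 genes, and the stacked bars of Rps2, Rpl29 and Rpl3 remain above those of the other groups.

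Rps3a1 is a small subunit gene whose name the rule does not take, and no rows were added to it. It had 1331 to 1632 reads in C3H and 2600 to 3495 in Pde6b rd10, a log2 fold change of 0.98 (SE 0.04, adjusted p = 6.57e-14 by edgeR). Rps3a3 had 920 to 1106 reads in C3H and 0 to 4 in Pde6b rd10, and Rps3a2 had 213 to 283 and 0 to 3. Of the other ribosomal proteins outside the rule, Rack1 fell in Prph rd2 (by 0.20) and in Pde6b rd10 (by 0.23), and Fau fell in Pde6b rd1 (by 0.15) and in Pde6b rd10 (by 0.27). Rpl7l1 fell by 0.28 in Prph rd2, and Rpl22l1 passed in no comparison.

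Rpl32l was the gene called in Pde6b rd1, and it is annotated as a processed pseudogene. It had 37, 34 and 44 reads in C3H, 111, 99 and 102 in Pde6b rd1, 51, 54 and 50 in Prph rd2 and 67, 58 and 52 in Pde6b rd10. The Pde6b rd1 samples were above all others. The log2 fold change was 1.49 (SE 0.18, adjusted p = 2.39e-07 by edgeR), and it was lower in Pde6b rd10 than in Pde6b rd1 by a log2 fold change of -0.90 (SE 0.16). In Pde6b rd10 it was 0.57 over C3H (SE 0.20, adjusted p = 0.0229 by edgeR), which did not pass without C3H replicate 2 (0.39) or without Pde6b rd10 replicate 2 (0.49). Rpl32l lies at chr10:20208490-20208888 on the plus strand, inside an intron of Map7 of the same strand. Map7 itself had 31.7 to 32.5 FPKM in C3H and 43.0 to 43.4 in Pde6b rd1, a log2 fold change of 0.35 (SE 0.03), and it fell by 0.18 in Pde6b rd10 and by 0.21 in Prph rd2. The part of intronic Map7 reads in the row was not tested. The sequences of the copy and its parent are shown because a read can tell them apart only at a few bases. Rpl32 is given as coding bases 179 to 278 of its GENCODE vM21 mRNA and Rpl32l at chr10:20208662-20208761 (GRCm38, plus strand).
Rpl32: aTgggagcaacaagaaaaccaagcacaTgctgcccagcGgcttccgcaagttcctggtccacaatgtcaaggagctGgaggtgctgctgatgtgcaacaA
Rpl32l: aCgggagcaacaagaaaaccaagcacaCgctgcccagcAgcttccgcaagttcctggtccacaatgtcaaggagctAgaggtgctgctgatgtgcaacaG
Capitals mark the differing bases, which are T2C, T28C, G39A, G77A and A100G counted from 1 at the first base shown, and 10 of 398 aligned coding bases differ in all.

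Rps4l, annotated as a transcribed processed pseudogene 79.7% identical to Rps4x over the aligned bases, rose in Pde6b rd10. It stood at 6.89, 7.54 and 7.71 FPKM in C3H, 5.83, 6.41 and 6.33 in Pde6b rd1, 7.84, 9.22 and 5.86 in Prph rd2 and 20.6, 22.3 and 18.1 in Pde6b rd10. The Pde6b rd10 samples lay far above all others. The log2 fold change was 1.41 (SE 0.10, adjusted p = 1.69e-10 by edgeR) against C3H and 1.76 (SE 0.13, adjusted p = 3.32e-10 by edgeR) against Pde6b rd1. It lies at chr6:148354656-148355598 on the plus strand, opposite an intron of Tmtc1. Tmtc1 had 3.83 to 4.69 FPKM in C3H and 6.54 to 6.82 in Pde6b rd10, a log2 fold change of 0.60 (SE 0.06). Whether strand was used in counting is not given in the sources used here, so that reads of both cannot be told apart.

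**Figure D5:**
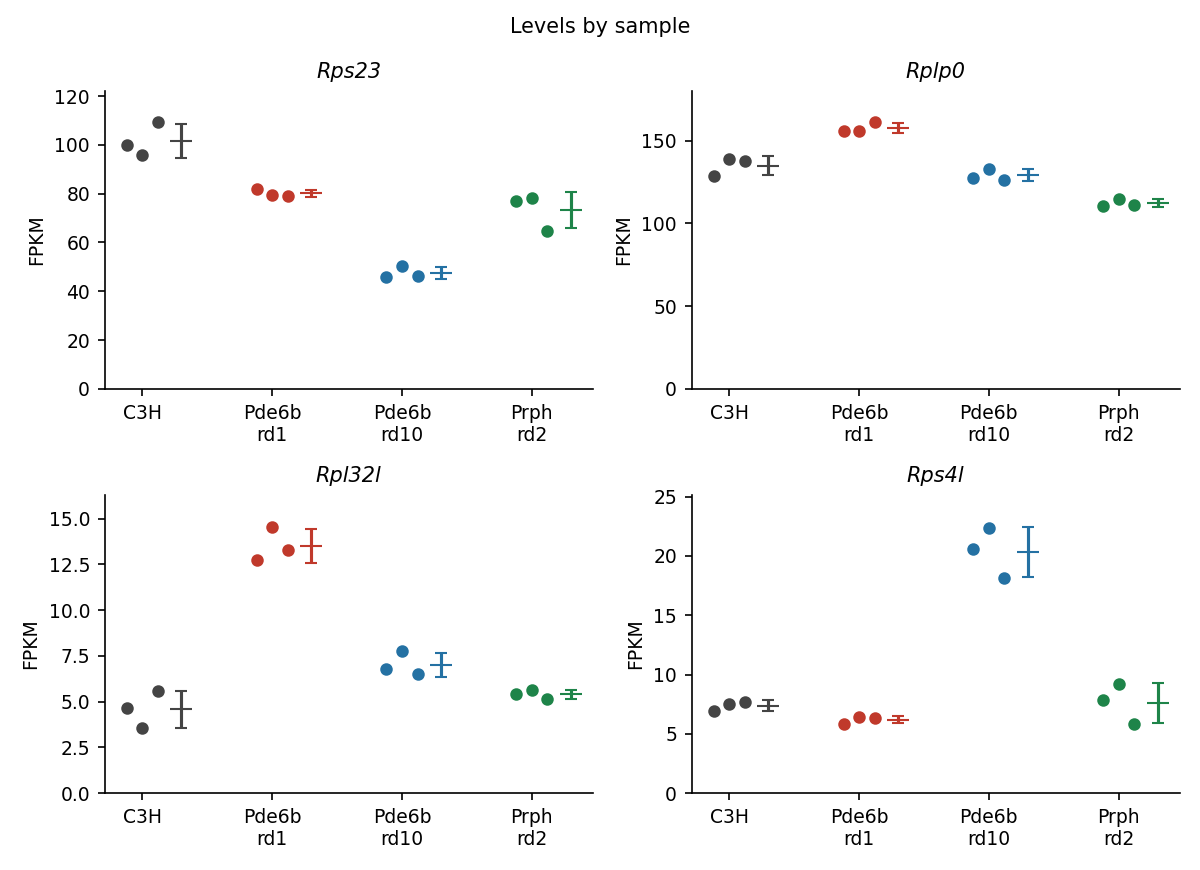
FPKM of Rps23, Rplp0, Rpl32l and Rps4l in each sample, with the group mean and its SD beside the 3 points. Rps23 lies below C3H in each model, Rplp0 above it in Pde6b rd1 and below it in Prph rd2, Rpl32l highest in Pde6b rd1 and Rps4l highest in Pde6b rd10.

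Rps27l and Rpl36al are expressed paralogs of ribosomal protein genes. Rps27l, a p53-responsive copy of Rps27, had 15.0 to 16.6 FPKM in C3H and 19.3 to 20.1 in Pde6b rd1, with no overlap, a log2 fold change of 0.23 (SE 0.08, adjusted p = 0.0257 by edgeR). With the C3H sample of day 13 as the only control, the value of Rps27l was 0.18 (SE 0.12). Rps27 itself, at 37.3 to 45.6 FPKM in C3H and 40.9 to 47.0 in Pde6b rd1, had a value of 0.05 that did not pass, and the difference between both genes was not tested. Rpl36al had 5 to 8 reads in C3H and 11 to 15 in Pde6b rd10, a log2 fold change of 1.09 (SE 0.41, adjusted p = 0.0313 by edgeR). At so few reads this rests on single libraries and ended without C3H replicate 1 or 2, without Pde6b rd10 replicate 1 or 2, with no filter on low counts, with the C3H sample of day 23 as the only control, and in DESeq2 (adjusted p = 0.180).

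Pde6b rd10 was also compared with Pde6b rd1 directly, in a fit of all 12 samples. The groups differ in allele, day and strain together, which cannot be told apart. Of 80 genes, 35 were lower in Pde6b rd10 (43.8%) and 8 higher (10%), against 27.0% and 30.2% of all genes, and the median log2 fold change was -0.12 against 0.00326. Called were 5 genes (6.25%) against 28.8% of all genes. Rps18 was lower by 0.39 on the log2 scale with no overlap, 41.7 to 45.4 FPKM in Pde6b rd1 and 30.5 to 33.4 in Pde6b rd10. Rps26 was lower with a log2 fold change of -0.40, Rpl10a with -0.36 and Rpl7a with -0.32. Of the stalk genes, Rplp1 was higher with 0.29, while Rplp0 was lower with -0.24 and Rplp2 with -0.27. Rpl3 (0.50) and Rps15a (0.20) were higher.

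Genes that serve the ribosome in other ways are given for comparison. Of all genes tested, 21.9% rose and 21.3% fell in Pde6b rd1, 27.7% and 26.3% in Pde6b rd10, and 4.53% and 5.17% in Prph rd2. Their median log2 fold changes were -0.01, -0.00248 and -0.00125. Of 22 other TOP mRNAs tested in Prph rd2, 4 fell (18.2%) and 0 rose, with a median log2 fold change of -0.11. In Pde6b rd10, 13 of 23 fell (56.5%) and 3 rose (13%), with a median of -0.12, and Gas5, a snoRNA host (1.23), was among those called. In Pde6b rd1, 5 of 22 rose (22.7%) and 4 fell (18.2%). Of 77 mitochondrial ribosomal protein genes, 3 fell (3.9%) and 0 rose in Prph rd2 (median -0.06). In Pde6b rd10, 25 fell (32.5%) and 6 rose (7.79%), with a median of -0.13. In Pde6b rd1, 7 fell (9.09%) and 5 rose (6.49%), with a median of -0.05. Of these, Mrpl49 (-0.93) and Mrpl27 (0.91) changed most clearly in Pde6b rd10.

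Factors that make or use ribosomes were counted in the same way, to be read beside the same shares of all genes. Of 52 ribosome biogenesis genes, 1 fell (1.92%) and 0 rose in Prph rd2 (median 0.02). In Pde6b rd1, 14 rose (26.9%) and 2 fell (3.85%), with a median of 0.03. In Pde6b rd10, 7 rose (13.5%) and 10 fell (19.2%), with a median of -0.02. Of 44 initiation factors, 12 rose (27.3%) and 7 fell (15.9%) in Pde6b rd1. In Pde6b rd10, 4 rose (9.09%) and 12 fell (27.3%), and in Prph rd2, 2 rose (4.55%) and 3 fell (6.82%). The called initiation factors in Pde6b rd1 were Eif2s3y and Eif2s3x, the Y- and X-linked subunits of eIF2, and in Pde6b rd10 Eif3j2 (-3.20) and Eif3j1 (1.11), which are near copies of each other. Of 14 elongation and release factors, 4 rose (28.6%) and 4 fell (28.6%) in Pde6b rd1, with Eef1a2, the neuronal form of eEF1A, called (-0.70). In Pde6b rd10, 4 rose (28.6%) and 5 fell (35.7%), and none passed in Prph rd2. Among 31 mTOR, MYC and TOP regulators, 9 rose (29%) and 6 fell (19.4%) in Pde6b rd1. There Mycl rose by 1.03 on the log2 scale and Deptor, an inhibitor of mTOR, fell by 0.81. In Pde6b rd10, 3 rose (9.68%) and 9 fell (29%), with Max (-0.63) and Mycl (-0.84) called lower and Deptor (0.67) called higher. In Prph rd2, 1 rose (3.23%) and 3 fell (9.68%), and none was called. The differences between these lists and the ribosomal protein genes were not tested.

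Circular RNAs, read from back-splice junctions, were nearly absent from the ribosomal protein genes. Of 12510 circRNAs, 4 came from Rpl9, Rpl4, Rpl41 and Rpl37, each with 2 junction reads in 1 sample, or 8 of 214352 junction reads in all. At this depth no comparison between groups was made.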

How the data were processed

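Counts per gene were deposited as whole numbers that the authors made by aligning filtered reads to GRCm38 and counting with HTSeq 0.11.2, without normalization, and the deposited FPKM values were these counts divided by gene length and reads on genes. Junction counts of circRNAs came from the authors' TopHat2 2.1.1 alignments and CIRCexplorer, with candidates under 2 reads discarded, and the deposited TPM of circRNAs, which the authors scaled to the junction reads of a sample, was not used. RNA was depleted of ribosomal RNA and made into directional libraries. Here, counts were tested in R 4.3.3 with edgeR 4.0.16 (TMM, filterByExpr, quasi-likelihood test), each model with C3H alone and both Pde6b models in 1 fit of 12 samples, and p-values were adjusted over all genes. The steps were tested on simulated data. Pseudogene transcripts were matched to GENCODE vM21 mRNAs with BLAST 2.17.0. Alternatives used limma 3.58.1 on log2 FPKM with a pseudocount of 1 or 0.1, DESeq2 1.42.0, other filters and size factors, and left-out replicates. Depth was 17049495 to 24755890 reads, and intervals of counting error do not cover other errors. Genes named were those called, the 5 with the smallest p per direction and comparison among those past the adjusted threshold, the 3 highest, the stalk genes, Rpsa and paralogs, and at most 3 called genes per other list. Members and lists were chosen with earlier results of these data known. Some genes that this rule takes are not reported here.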

Additional observations from a re-analysis of the deposited data

Results flagged for a closer look

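The effects in both Pde6b models differed for 5 ribosomal protein genes in the direct contrast of a fit of all 12 samples (edgeR, unadjusted p under 0.05 and at least 1.5-fold), which also compares 2 days and 2 strains. The log2 fold change of Pde6b rd10 over Pde6b rd1 was 3.84 for Rpl29, 2.49 for Rps2, 1.76 for Rps4l, -0.71 for Rps23 and -0.90 for Rpl32l. With the pseudogene rows matched by sequence added, it was 2.65 for Rpl29, 0.73 for Rps2 and -0.72 for Rps23. Rps4l and Rpl32l, annotated as pseudogenes, were left out of the matching, so the addition of rows could not bear on them.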

How the results depend on the processing

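With only the C3H sample of the model's day, they were 4 of 80 in Pde6b rd1 (17 of 79 with all controls), 21 of 80 in Pde6b rd10 (48 of 80) and 21 of 80 in Prph rd2 (26 of 79), with medians of -0.0789 and -0.25 in the last 2 and 3 genes called in Prph rd2. In Pde6b rd1, DESeq2 gave 11, the fit of all 12 samples 9, and limma 30 under both pseudocounts (28 rose, 2 fell), with medians of 0.11 and 0.11. The limma medians over all genes were also higher there, 0.044 with a pseudocount of 1 and 0.059 with 0.1, against -0.011 in the main fit. With a term for sequencing quality class, the median of the ribosomal protein genes in Pde6b rd1 was 0.07. In Prph rd2, limma gave 10 under both, and 1 gene was called with no filter and in the fit of 12. Limma's medians were -0.0788 and -0.0823 in Pde6b rd10 and -0.16 and -0.16 against Pde6b rd1. With pseudogene rows named after members, the share of reads in Pde6b rd1 was 0.767%. Leaving out 1 replicate gave 11 to 21 genes past the threshold in Pde6b rd1 (11 without Pde6b rd1 replicate 1), 38 to 52 in Pde6b rd10, 8 to 44 in Prph rd2 and 36 to 42 between both Pde6b models. Called were 1 to 1, 4 to 6, 0 to 1 and 5 to 6, and medians ran from 0.00 to 0.07, -0.17 to -0.10, -0.23 to -0.12 and -0.14 to -0.11. The 1 reversal was Rpl15 in Pde6b rd10, -0.19 with matched pseudogene rows; the cause of the other shifts was not tested. Of 118 gene results, 77 kept direction and side throughout.

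Replicate numbers are shared by all groups. In Pde6b rd1 and C3H, same-numbered samples deviated together weakly, with r of 0.0573 to 0.126 (mean 0.0836). Differently numbered samples there had r of -0.0756 to 0.0227. Deviations were taken from the group mean and cancel out within a group. The mean r of differently numbered samples thus tends to the opposite sign by construction, and is no separate reference. Against C3H, the mean r of same-numbered samples was -0.0222 in Pde6b rd10 and 0.0068 in Prph rd2. Differently numbered samples had 0.0111 and -0.00383. Between both Pde6b models the means were 0.0709 and -0.0359, with overlapping ranges (-0.0362 to 0.136 and -0.166 to 0.081). With the replicate block, 15 genes passed in Pde6b rd1 and the median was 0.04; no count moved by over 1.5 times.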
